A study of Mus musculus with 6 samples.

Results

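The chemokine genes described here are Cxcl1, Cxcl5, Cxcl10, Cxcl12, Cxcl14, Cxcl16, Cx3cl1, Ccl2, Ccl5 and Ccl7, chosen by gene name. All 10 were found among the 55421 genes of the count table, and all 10 were among the 18140 genes tested. The cells were C2C12 derivatives (mouse myoblasts that form myotubes when serum is low), and both groups stably carried a reporter with expanded CUG repeats (CUG200) as a model of myotonic dystrophy type 1 (DM1). The control group carried the empty vector pLL4.0 and the other group carried pLL4.0 with miR-322 and miR-503, both selected with puromycin, and RNA was collected on day 4 of differentiation in medium with horse serum and insulin. There were 3 libraries per group. Each group was 1 selected line, so a difference between the lines and an effect of the microRNAs cannot be told apart, and the labels do not say whether the replicates were separate cultures, so that the tests below measure the spread between these libraries.

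Chemokines are small secreted proteins that guide migrating cells through G protein-coupled receptors, and they are bound and presented by glycosaminoglycans on cell surfaces and matrix. Their names follow the spacing of the first cysteines, as CXC, CC and CX3C ligands. In muscle, myoblasts and myotubes make several of them: Cxcl12 guides muscle progenitors, Ccl2 and Ccl7 attract monocytes after injury, and Cxcl1 and Cxcl5 attract neutrophils. Many are induced by TNF, interleukin-1 or interferons through NF-kB and STAT factors. These data are RNA levels in cultured cells, in which fewer cells of a type and less RNA per cell cannot be told apart.

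The overexpressed microRNAs are shown because their seeds (bases 2 to 8, in capitals, RefSeq sequences on GRCm38.p6) define the sites that were looked for in the chemokine transcripts. They lie next to each other on the minus strand of chromosome X, miR-322-5p at chrX:53054306-53054327 and miR-503-5p at chrX:53054027-53054049.
mmu-miR-322-5p: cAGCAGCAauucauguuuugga
mmu-miR-503-5p: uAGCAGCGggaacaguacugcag
The seeds share their first 6 bases and differ in the last. The 7-base match to the miR-322-5p seed, TGCTGCT, was present in the 3'UTR of 2 of the 10 chemokine genes, Cxcl12 with 2 sites and Cx3cl1 with 1 site, while 24.4% of 13409 tested genes with an annotated 3'UTR held it (longest 3'UTR per gene, GENCODE M21). The match to the miR-503-5p seed, CGCTGCT, was present in 4.87% of these genes and in 0 of the 10 chemokine genes. The shared 6 bases GCTGCT occurred in 45.2% of the genes and in 5 of the 10, which were Cxcl5, Cxcl10, Cxcl12, Cx3cl1 and Ccl5. The 7-base matches are in capitals below, each within 1 exon and on the plus strand of GRCm38, at chr6:117178219-117178247 and chr6:117180677-117180705 for Cxcl12 and at chr8:94780799-94780827 for Cx3cl1.
Cxcl12 site 1: cactgggcaccTGCTGCTgttagggccaa
Cxcl12 site 2: tgtttatacacTGCTGCTggctcccgagg
Cx3cl1 site: aaagaatcctcTGCTGCTggctggttaga
Over all genes, the median log2 fold change was 0.01 for the 3267 genes with TGCTGCT and -0.02 for the 10142 genes without it. Cxcl1, which had one of the largest falls among the chemokine genes, held none of these matches in its 3'UTR of 592 bases. Cxcl5, Cxcl12 and Ccl5, which also fell, held at least the shared 6 bases. The part of these sites in the changes was not tested.

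Of the 10 chemokine genes, 4 were lower in the miR-322/-503 overexpressing DM1 myoblasts at an adjusted p under 0.05 and a log2 fold change below -1 (edgeR quasi-likelihood test, Benjamini-Hochberg adjustment over all tested genes), which were Cxcl1, Cxcl5, Cxcl12 and Ccl5. Among all tested genes, 5.29% were lower by this rule. Cxcl14 was the 1 chemokine gene that was higher by the same rule, which 4.59% of all tested genes met. The other 5, Cxcl10, Cxcl16, Cx3cl1, Ccl2 and Ccl7, did not pass an adjusted p of 0.05. The median log2 fold change of the 10 genes was -1.12, beside -0.01 over all tested genes, and 8 of the 10 had a value below 0, beside 50.7% of all tested genes. The values of the groups in CPM (counts scaled to library size by edgeR) did not overlap, with the miR-322/-503 group lower, for 5 of the 10 (the 4 named above and Ccl2), beside 23.5% of all tested genes. They did not overlap in the other direction for Cxcl14 and Cxcl16, beside 21.6% of all tested genes.

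**Figure D1:**
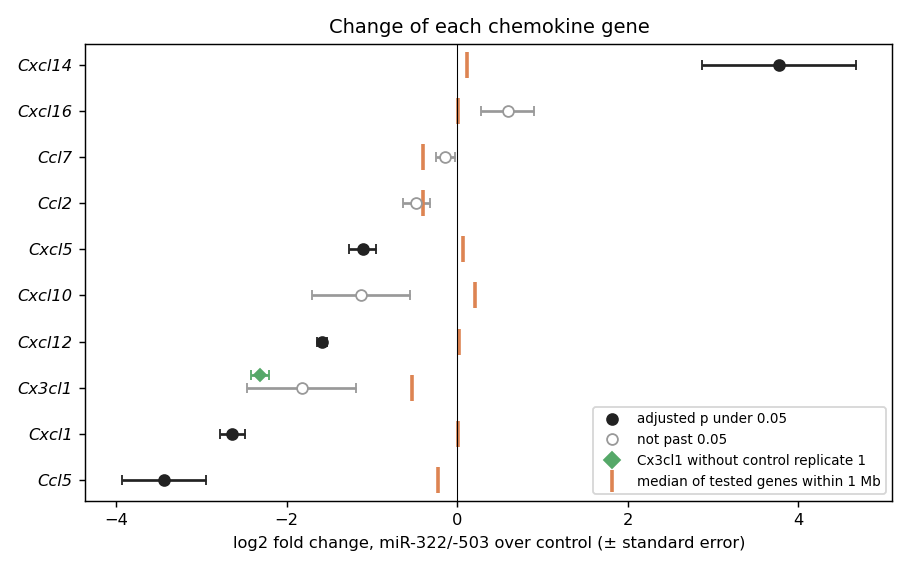
Log2 fold change of each of the 10 chemokine genes, miR-322/-503 over control, on the horizontal axis, with bars of 1 standard error (SE) from edgeR, n = 3 libraries per group, filled circles for an adjusted p under 0.05, open circles for the others, a diamond for Cx3cl1 without control replicate 1 and an upright mark for the median of the tested genes within 1 Mb. The fitted values of Cxcl14 and Ccl5 rest on few reads in the lower group and are no measure of the size of the fold. Cxcl1, Cxcl5, Cxcl12 and Ccl5 lay below -1 and passed the adjusted p, Cxcl14 lay above 1 and passed it, and the bar of Cx3cl1 (SE 0.64) was wide beside that of Cxcl12 (0.06).

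Levels of different genes were compared as TPM, a measure scaled for transcript length and library depth. In the control, Cxcl12 was by far the most abundant of the 10, at 114 ± 5.25 TPM (SD, n = 3). Cxcl1 followed at 26.3 ± 1.19 TPM, and Cx3cl1 at 24.5 ± 16.3 TPM and Ccl7 at 21.4 ± 1.87 TPM came next, with ranges of Cx3cl1 that overlapped those of both neighbours in this order. Ccl2 stood at 16.2 ± 2.35 TPM, Cxcl5 at 4.32 ± 0.304 TPM and Ccl5 at 2.55 ± 0.200 TPM, each apart from the next. Cxcl10, Cxcl16 and Cxcl14 were below 1 TPM in every control library. In the miR-322/-503 group the order became Cxcl12, Ccl7, Ccl2, Cx3cl1, Cxcl1, Cxcl5, Cxcl14, Cxcl16, Cxcl10 and Ccl5. There, the ranges of Cxcl14 and Cxcl16 overlapped, as did those of Cxcl10 and Ccl5, and the other neighbours were apart. By group mean, Cxcl1 moved from the second place to the fifth and Ccl5 from the seventh to the last. In control replicates 2 and 3, however, Cx3cl1 lay above Cxcl1, at 34.9 and 32.8 TPM against 25.9 and 25.3 TPM.

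**Figure D2:**
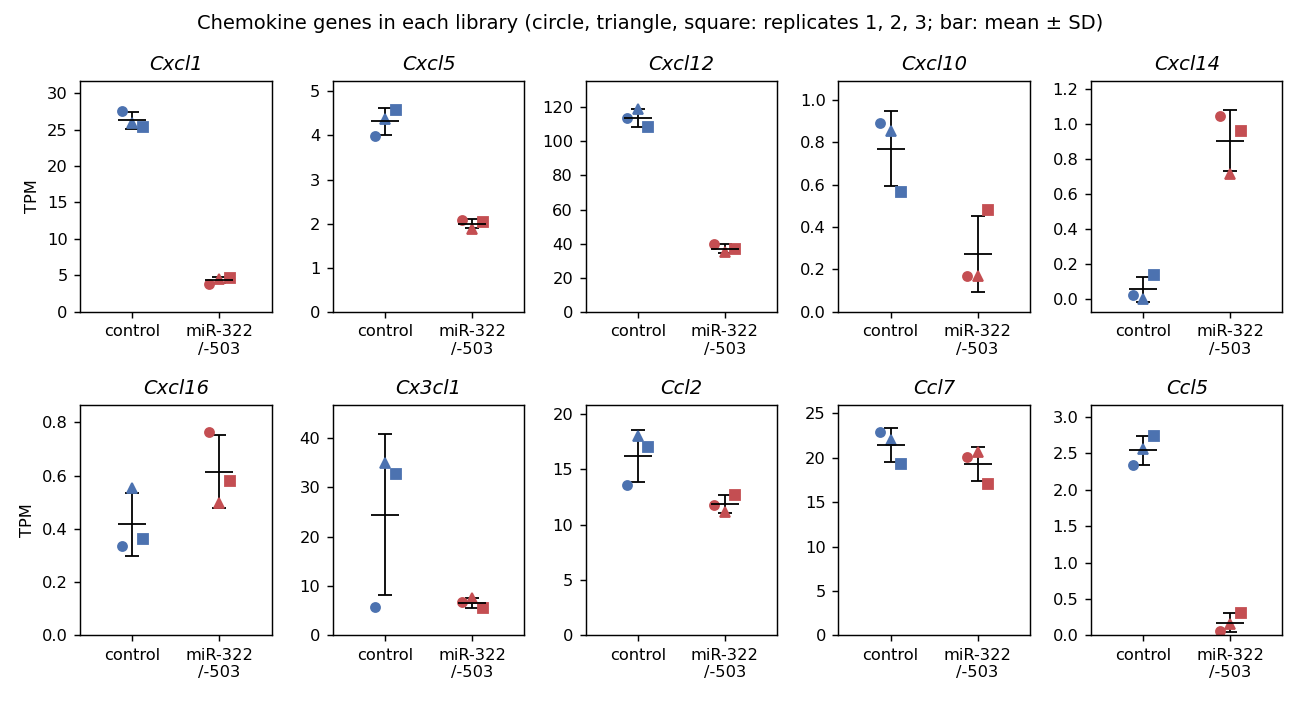
TPM of each chemokine gene in the 3 control and the 3 miR-322/-503 libraries, 1 panel per gene with its own linear axis, symbols for replicates 1 to 3 and a bar for the mean ± SD. In TPM, Cxcl1, Cxcl5, Cxcl12, Ccl5, Ccl2 and Cxcl10 were lower in every miR-322/-503 library than in any control library, the last 2 by a small margin. Control replicate 1 of Cx3cl1 lay among the miR-322/-503 libraries in TPM.

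The summed level of the 10 genes was 191, 228 and 211 TPM in control replicates 1 to 3, against 86.4, 82.0 and 80.9 TPM in miR-322/-503 replicates 1 to 3. The means were 210.1 ± 18.4 TPM and 83.1 ± 2.93 TPM. Without Cx3cl1, whose control libraries differed, they were 185.6 ± 7.38 TPM and 76.5 ± 2.78 TPM. Cxcl12 made up 54.3% ± 4.55 of the sum in the control and 44.6% ± 1.89 in the miR-322/-503 group. The monocyte attractants Ccl7 and Ccl2 took a larger share of the smaller sum, Ccl7 going from 10.3% ± 1.51 to 23.2% ± 2.02 and Ccl2 from 7.68% ± 0.530 to 14.3% ± 1.20. The share of Cxcl1 went from 12.6% ± 1.62 to 5.23% ± 0.715.

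**Figure D3:**
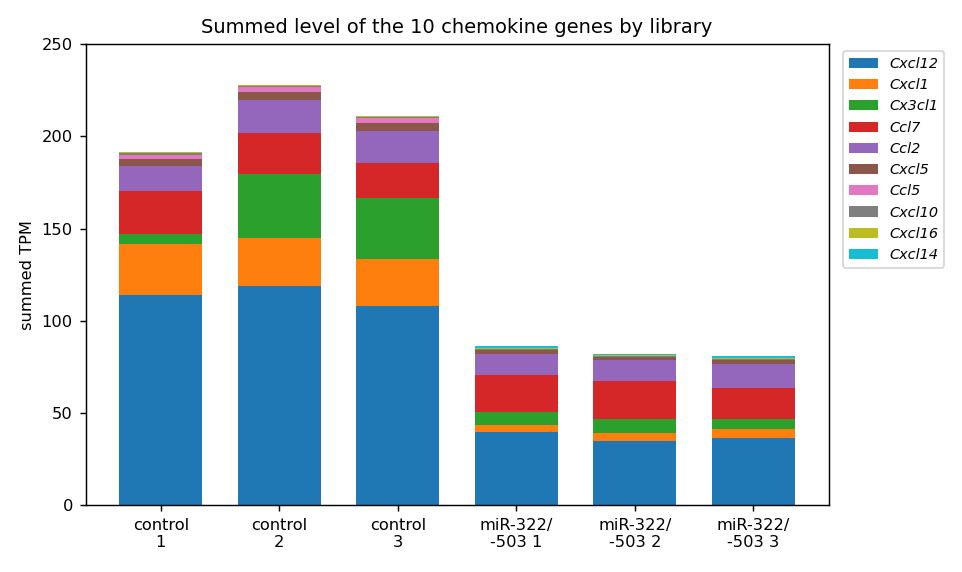
Summed TPM of the 10 chemokine genes in each of the 6 libraries, stacked by gene, on a linear axis that starts at 0. The control libraries reached 191 to 228 TPM and the miR-322/-503 libraries 80.9 to 86.4 TPM, with Cxcl12 as the largest part of each bar.

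Cxcl1 and Cxcl5 are CXC ligands with the ELR motif that attract neutrophils through the receptor Cxcr2. Both lie in a chemokine cluster on chromosome 5 (GRCm38, plus strand), Cxcl5 at chr5:90759360-90761624 and Cxcl1 at chr5:90891241-90893115. Cxcl1 was at 27.6, 25.9 and 25.3 TPM in control replicates 1 to 3 and at 3.82, 4.52 and 4.66 TPM in miR-322/-503 replicates 1 to 3. Every miR-322/-503 library was far below every control library. The log2 fold change was -2.64 (SE 0.15, adjusted p = 2.43e-05, edgeR), a 6.21-fold lower level. Cxcl5 was at 3.99, 4.38 and 4.59 TPM in the control and at 2.09, 1.88 and 2.03 TPM in the miR-322/-503 group. The groups did not overlap, and the log2 fold change was -1.11 (SE 0.16, adjusted p = 0.00165, edgeR). The ratio of Cxcl1 to Cxcl5, both in TPM, was 6.92, 5.92 and 5.51 in the control, against 1.83, 2.40 and 2.29 in the miR-322/-503 group, so Cxcl1 fell by more than its neighbour. The other genes of this cluster, Ppbp, Pf4, Cxcl3, Cxcl15 and Cxcl2, were too low to be tested, with no more than 31 estimated counts in any library and 0 in all libraries for Pf4, Cxcl15 and Cxcl2. Cxcr2, the receptor of these ligands, was at 0 in all 6 libraries.

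The Cxcl1 promoter is shown because it holds matches of a kB-like motif, the kind of sequence that NF-kB binds, and the Cxcl10 promoter because it holds more than one of the motifs searched. Both are RefSeq sequences on GRCm38.p6 from 250 bases before to 50 bases after the start site, at chr5:90890995-90891294 (plus strand) for Cxcl1 and chr5:92348840-92349139 (minus strand) for Cxcl10. Capitals mark the kB-like matches.
Cxcl1 promoter: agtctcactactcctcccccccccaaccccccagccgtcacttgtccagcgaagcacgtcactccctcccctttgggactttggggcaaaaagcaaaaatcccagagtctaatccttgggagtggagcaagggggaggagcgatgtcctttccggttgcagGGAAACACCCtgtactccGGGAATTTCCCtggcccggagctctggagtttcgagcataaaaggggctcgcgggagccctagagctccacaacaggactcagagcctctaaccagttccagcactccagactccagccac
Cxcl10 promoter: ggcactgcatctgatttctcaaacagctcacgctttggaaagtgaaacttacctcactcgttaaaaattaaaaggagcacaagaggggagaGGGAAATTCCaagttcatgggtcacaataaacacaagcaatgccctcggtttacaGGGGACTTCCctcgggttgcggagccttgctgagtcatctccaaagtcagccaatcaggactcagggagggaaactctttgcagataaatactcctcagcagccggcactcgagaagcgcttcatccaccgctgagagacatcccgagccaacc
The kB-like motif was GGG, any 3 bases, then TTCC, searched on both strands. It was found in 5.56% of 32851 promoter windows of this length. In Cxcl1 it matched the minus strand at positions -89 to -80 and both strands, overlapping, at -71 to -62 and -70 to -61, and in Cxcl10 it matched the plus strand at -159 to -150 and -104 to -95. An AP-1 motif, TGANTCA, was in 7.81% of the windows and in Cxcl10 at -74 to -68. An interferon response motif, GAAA, any 2 bases, then GAAA, was in 3.44% of the windows, in Cxcl10 at -213 to -204 and in Cxcl14 at -172 to -163. Promoter sequences were matched for 5 of the 10 genes, and those of Cxcl12 and Cx3cl1 held none of these letters in this window. Sequences of Cxcl5, Cxcl16, Ccl2, Ccl5 and Ccl7 were not used here.

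Cxcl12, also called SDF-1, is the ligand of Cxcr4 and of the scavenging receptor Ackr3, which takes up Cxcl12 and lowers the amount around the cell. The gene lies at chr6:117168535-117181367 (plus strand). Cxcl12 was at 114, 119 and 108 TPM in the control and at 39.8, 34.8 and 36.6 TPM in the miR-322/-503 group. It was the most abundant of the 10 in each of the 6 libraries, and the groups were far apart. The log2 fold change was -1.58 (SE 0.06, adjusted p = 3.34e-06, edgeR). Cxcr4 was at 36.2, 32.0 and 27.6 TPM in the control and at 29.1, 26.0 and 24.9 TPM in the miR-322/-503 group, with overlapping ranges and a log2 fold change of -0.17 (SE 0.10, adjusted p = 0.282, edgeR). Ackr3 was at 13.7, 11.95 and 11.5 TPM in the control and at 66.5, 61.8 and 54.3 TPM in the miR-322/-503 group. It rose by a log2 fold change of 2.33 (SE 0.09, adjusted p = 4.16e-06, edgeR), with no overlap between the groups. The ratio of Cxcl12 to Ackr3 in TPM was therefore between 8.33 and 9.94 in the control libraries and between 0.563 and 0.673 in the miR-322/-503 libraries. The ratio of Cxcl12 to Cxcr4 was between 3.15 and 3.92 in the control and between 1.34 and 1.47 in the miR-322/-503 group.

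Mmp2, a secreted metalloproteinase that cleaves Cxcl12 and Ccl7 among other substrates, was at 871, 830 and 803 TPM in the control and at 131, 124 and 109 TPM in the miR-322/-503 group. It fell by 2.76 on the log2 scale (SE 0.07, adjusted p = 6.56e-07, edgeR). Cxcl13, a B cell attractant that binds Cxcr5, was low in the control at 0.455, 0.489 and 0.616 TPM and stood at 3.80, 4.54 and 4.12 TPM in the miR-322/-503 group, a log2 fold change of 2.98 (SE 0.23, adjusted p = 8.31e-05, edgeR). Cxcl13 thus moved against Cxcl12 within the CXC ligands.

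**Figure D4:**
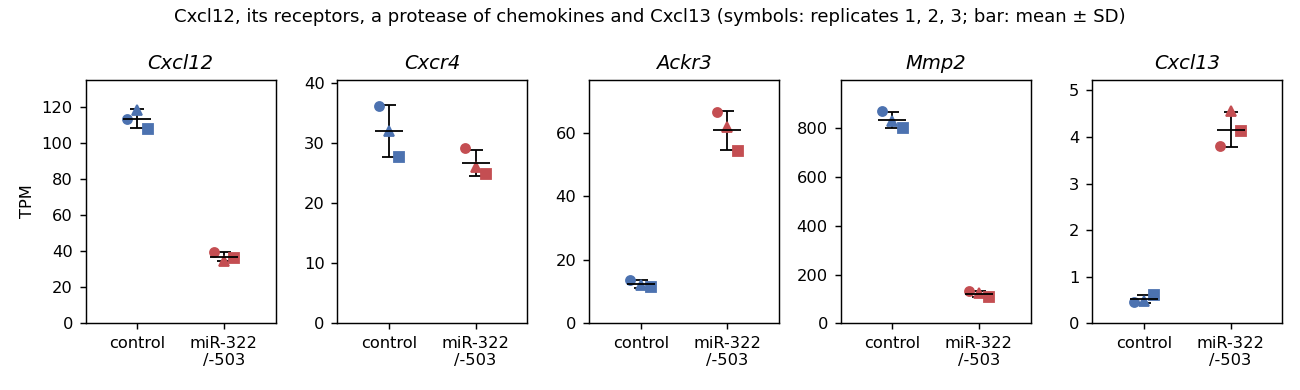
TPM of Cxcl12, its receptors Cxcr4 and Ackr3, the protease Mmp2 and the ligand Cxcl13 in each library, 1 panel per gene with its own linear axis, symbols for replicates 1 to 3 and a bar for the mean ± SD. Cxcl12 and Mmp2 were lower and Ackr3 and Cxcl13 higher in all 3 miR-322/-503 libraries, while the ranges of Cxcr4 overlapped.

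Cxcl10, an interferon-induced ligand of Cxcr3 that attracts T cells, lies at chr5:92346638-92348889 (minus strand) between Cxcl9 and Cxcl11, ligands of the same receptor. It was low, at 0.890, 0.854 and 0.565 TPM in the control and at 0.170, 0.167 and 0.478 TPM in the miR-322/-503 group. All 3 miR-322/-503 values of TPM were below the control values, but miR-322/-503 replicate 3 lay close to control replicate 3, and in CPM the groups overlapped. The log2 fold change was -1.13 (SE 0.58, adjusted p = 0.197, edgeR). Without miR-322/-503 replicate 3 it was -1.97, with an adjusted p of 0.0376 (edgeR). Cxcl9 showed a log2 fold change of 0.21 (adjusted p = 0.500, edgeR) at 1.05 ± 0.202 TPM in the control and 1.26 ± 0.154 TPM in the miR-322/-503 group, and Cxcl11 was too low to be tested, with no more than 12 estimated counts in any library.

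Cxcl14, a ligand found in skin and other epithelia and in muscle, lies at chr13:56288643-56296551 (minus strand). It had 2, 0 and 12 estimated counts in control replicates 1 to 3, against 95, 43 and 61 in miR-322/-503 replicates 1 to 3. If 1 read pair entered as about 4 estimated counts, this is about 4 read pairs against 50. The ratio of depth-scaled read pairs was 12.4, with a 95% interval of 4.57 to 47.4 that covers counting error only. With the control set to the floor of 12 estimated counts (3 read pairs) per library, the ratio was 5.38. The groups did not overlap, and the adjusted p was 0.0180 (edgeR), which became 0.0648 without control replicate 1, 0.0584 without miR-322/-503 replicate 1 and 0.0503 without miR-322/-503 replicate 3. Control replicate 3 held 12 of the 14 control counts, and without it the fitted log2 fold change went from 3.77 to 5.82 (adjusted p = 0.00479, edgeR). In the miR-322/-503 group its level was still 0.906 ± 0.173 TPM, below that of Cxcl5 in every library.

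Cxcl16 and Cx3cl1 differ from the other ligands in that they are made as transmembrane proteins with a mucin stalk, which Adam10 and Adam17 cut to release the chemokine. Cxcl16 lies at chr11:70453983-70459984 (minus strand). It was at 0.337, 0.553 and 0.363 TPM in the control and at 0.764, 0.497 and 0.582 TPM in the miR-322/-503 group. The TPM ranges overlapped while the CPM ranges did not, and the log2 fold change was 0.59 (SE 0.31, adjusted p = 0.208, edgeR). Its receptor Cxcr6 showed a log2 fold change of 0.28 (adjusted p = 0.366, edgeR).

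Cx3cl1, or fractalkine, lies at chr8:94772009-94782427 (plus strand) and is the ligand of Cx3cr1. It was at 5.74, 34.9 and 32.8 TPM in control replicates 1 to 3 and at 6.77, 7.52 and 5.56 TPM in miR-322/-503 replicates 1 to 3. In TPM, control replicate 1 lay within the range of the miR-322/-503 libraries, and in CPM, at 7.598 against 10.2 to 12.6, it lay below them. The other control libraries lay far above on both scales. Over all 6 libraries the log2 fold change was -1.82 (SE 0.64, adjusted p = 0.0718, edgeR). Without control replicate 1 it was -2.31 (SE 0.109, adjusted p = 8.66e-05, edgeR). The estimated counts were 588, 4885 and 4618 in the control, against 1104, 945 and 765 in the miR-322/-503 group. In CPM, control replicate 1 was at 0.133 of the mean of control replicates 2 and 3. Of 9629 tested genes that averaged at least 10 CPM in those libraries, 9, Cx3cl1 included, had a ratio this low, the median ratio was 1.004 and the 1st and 99th percentiles were 0.625 and 1.46. The cause of this value was not tested. Cx3cr1 showed a log2 fold change of -0.32 (adjusted p = 0.863, edgeR). Adam10 and Adam17 had log2 fold changes of 0.47 (adjusted p = 0.0899) and 0.32 (adjusted p = 0.185) in edgeR. Of the 52 tested genes within 1 Mb of Cx3cl1, 29 were lower and 3 higher at an adjusted p under 0.05 (15.5% and 13.2% of all tested genes), and their median log2 fold change was -0.53. The part of this region in the value of Cx3cl1 was not tested.

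Ccl2, Ccl7 and Ccl5 are CC ligands on chromosome 11. Ccl2 (chr11:82035571-82037453) and Ccl7 (chr11:82045712-82047525) are neighbours on the plus strand and attract monocytes through Ccr2, while Ccl5 (chr11:83525778-83530518, minus strand), also called RANTES, attracts T cells and monocytes. Ccl7 was at 22.9, 22.0 and 19.3 TPM in the control and at 20.1, 20.6 and 17.1 TPM in the miR-322/-503 group. The ranges overlapped, and the log2 fold change was -0.14 (SE 0.11, adjusted p = 0.402, edgeR). Ccl2 was at 13.5, 18.0 and 17.0 TPM in the control and at 11.8, 11.1 and 12.7 TPM in the miR-322/-503 group. Control replicate 1 lay just above the highest miR-322/-503 library. The log2 fold change of -0.48 (SE 0.16) missed the threshold, with an adjusted p of 0.0575 in edgeR, and passed it without control replicate 1 (-0.61, adjusted p = 0.0263, edgeR). Ccl8, in the same cluster and an attractant of monocytes and other leukocytes, moved the other way. It was at 3.83, 6.35 and 1.72 TPM in the control and at 14.7, 16.8 and 18.4 TPM in the miR-322/-503 group, a log2 fold change of 2.08 (SE 0.42, adjusted p = 0.00848, edgeR). Ccl11 and Ccl12, which lie between Ccl7 and Ccl8, were too low to be tested, with no more than 17 and 10 estimated counts in any library, and the receptor Ccr2 was at 0 in all 6 libraries.

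Ccl5 was at 2.34, 2.57 and 2.73 TPM in the control and at 0.0604, 0.153 and 0.311 TPM in the miR-322/-503 group. These levels rest on 52, 62 and 67 estimated counts for the control, against 3, 5 and 8 for the miR-322/-503 group, about 45 against 4 read pairs. The ratio of depth-scaled read pairs, control over miR-322/-503, was 11.3, with a 95% interval of 4.12 to 43.3 for counting error, and 4.97 with the miR-322/-503 group set to the floor. The groups did not overlap, and the adjusted p was 0.00176 (edgeR). The nearby Ccl9, a macrophage chemokine, had a smaller fall, from 3.91 ± 0.0778 to 2.46 ± 0.142 TPM, with a log2 fold change of -0.56 (SE 0.14, adjusted p = 0.0197, edgeR). Its adjusted p was between 0.0606 and 0.0675 when control replicate 2, control replicate 3, miR-322/-503 replicate 1 or miR-322/-503 replicate 2 was left out. Ccl6, Ccl3 and Ccl4 of this cluster were too low to be tested.

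The 10 chemokine genes themselves were left out of the neighbour counts. The tested neighbours within 1 Mb of the other 9 chemokine genes had median log2 fold changes from -0.40 (11 neighbours, Ccl2 and Ccl7) to 0.21 (29 neighbours, Cxcl10). Within 500 kb, the median turned to 2.08 for Ccl2 and Ccl7 (1 tested gene outside the 10, Ccl8), -0.19 for Cxcl1 (7 neighbours) and -0.06 for Cxcl5 (8 neighbours). Within 1 Mb, the 14 neighbours of Cxcl1 had a median of 0.01, with 2 lower and 0 higher past the adjusted p (15.5% and 13.2% of all tested genes), and the 21 neighbours of Cxcl12 had a median of 0.02.

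The other chemokine ligands formed a list of 28 genes, of which 5 were high enough to be tested, 1 of them lower and 3 higher at an adjusted p under 0.05 (15.5% and 13.2% of all tested genes). The fall of Ccl9 and the rises of Cxcl13 and Ccl8 were given above, Ccl25, a ligand of Ccr9, rose by a log2 fold change of 0.71 (adjusted p = 0.00692, edgeR), and Cxcl9 did not pass. Their median log2 fold change was 0.71. Of the other 23 ligands, 11 had 0 counts in all libraries and none had more than 31 estimated counts in a library. The 10 genes above thus held most of the chemokine transcripts measured, at 191 to 228 TPM in the control libraries beside 15.2 to 20.5 TPM for the sum of the 28 other ligands, and at 80.9 to 86.4 TPM in the miR-322/-503 libraries beside 33.5 to 40.7 TPM.

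Of 23 chemokine receptors, 9 were tested. Ackr3 was the 1 that rose and 0 were lower at an adjusted p under 0.05 (13.2% and 15.5% of all tested genes). The scavenging receptor Ackr4, which takes up CC ligands, had a log2 fold change of -1.12 in edgeR (adjusted p = 0.0793). It passed the adjusted p in 2 of 14 alternatives. The median of the receptors was -0.17. Of the 14 receptors not tested, 7 were at 0 in all libraries.

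Among 13 genes that cut, bind or present chemokines, 11 were tested, 4 of them lower and 2 higher at an adjusted p under 0.05 (15.5% and 13.2% of all tested genes), with a median log2 fold change of -0.01. The lower ones were Mmp2 and the heparan sulfate proteoglycans Sdc3 (-0.65, adjusted p = 0.000274), Sdc4 (-0.30, adjusted p = 0.0250) and Hspg2 (-0.43, adjusted p = 0.000655), all in edgeR. The higher ones were the membrane protease Adam8, at 5.13 ± 0.452 TPM in the control and 20.2 ± 0.694 TPM in the miR-322/-503 group (log2 fold change 2.08, adjusted p = 5.7e-06, edgeR), and the proteoglycan Sdc1 (0.59, adjusted p = 0.000315, edgeR). The proteoglycans did not all move in the same direction. Dpp4, a peptidase that trims Cxcl12, Cxcl10 and Ccl5, was at 0 in all libraries.

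The NF-kB and inducer list held NF-kB subunits, their regulators and the cytokines, receptors and interferon genes known to induce chemokines. Of its 27 genes, 26 were tested, 4 were lower and 7 higher at an adjusted p under 0.05, and 15 did not pass. Without miR-322/-503 replicate 3, the number higher was 4. Over all tested genes, 15.5% were lower and 13.2% higher by this rule. The median log2 fold change was 0.09. The interleukin-1 receptor Il1r1 (-0.84, adjusted p = 2.89e-05), the subunit Rel (-0.74, adjusted p = 0.00271), the TNF receptor Tnfrsf1b (-0.71, adjusted p = 7.54e-05) and the interferon-gamma receptor Ifngr1 (-0.44) were the lower ones in edgeR. Bcl3, an IkB family protein that acts in the nucleus, was the 1 gene with a log2 fold change above 1 that passed, at 4.83 ± 1.48 TPM in the control and 11.01 ± 0.155 TPM in the miR-322/-503 group (1.31, adjusted p = 0.000317, edgeR). Ikbkg, Tnfaip3, Relb, Ifnar1, Chuk and Rela were the others that were higher. Tnf itself had 4, 7 and 8 estimated counts in the control, against 40, 20 and 10 in the miR-322/-503 group (adjusted p = 0.0652, edgeR), and Ifnb1 was at 0 in all libraries.

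**Figure D5:**
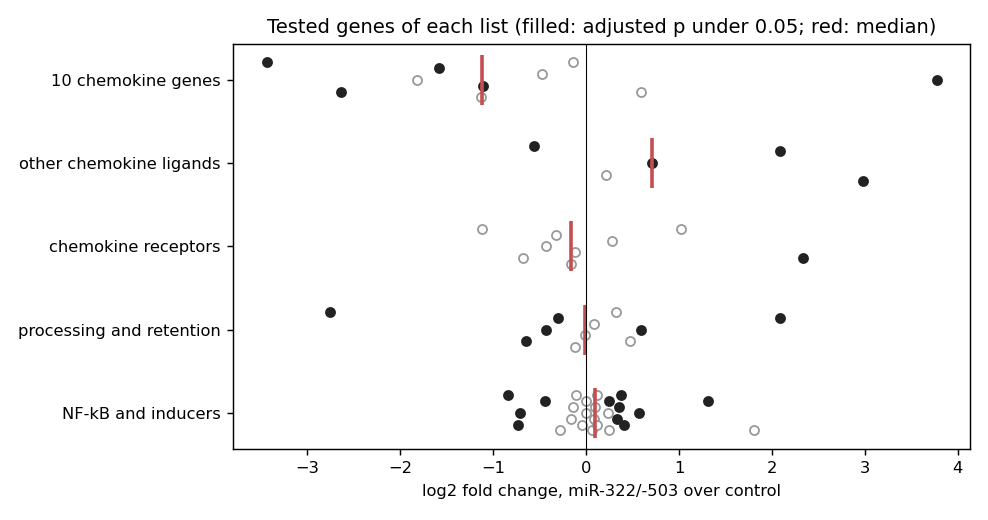
Log2 fold change, miR-322/-503 over control, of each tested gene in the 10 chemokine genes and in 4 related lists, with filled points for an adjusted p under 0.05 (edgeR) and a red line at the median of each list. The median of the 10 chemokine genes was -1.12, beside 0.71 for the other ligands, -0.17 for the receptors, -0.01 for processing and retention and 0.09 for the NF-kB and inducer genes.

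Markers of other cell types were examined as well. Of 10 leukocyte markers, 4 were tested, 2 of them lower at an adjusted p under 0.05 (Cd14 and Lyz2), beside 15.5% of all tested genes, and the others, Cd68 and Csf1r, not past it. Ptprc (CD45) had no more than 6 estimated counts and Itgam no more than 8 in any library, and Adgre1 and Cd3e were at 0 in all. Lyz2, lysozyme of myeloid cells, had 141, 78 and 88 estimated counts in the control, against 0, 0 and 5 in the miR-322/-503 group (adjusted p = 0.00289, edgeR). Cd14, a lipopolysaccharide co-receptor of myeloid cells, was the most abundant of the list, at 18.3 to 23.0 TPM in the control and 14.6 to 18.1 TPM in the miR-322/-503 group (-0.34, adjusted p = 0.0362, edgeR). Cd68, a lysosomal protein of macrophages, was at 3.09 to 5.34 TPM and 5.23 to 6.30 TPM (log2 fold change 0.48, adjusted p = 0.102, edgeR). Ly6g, a neutrophil marker too low to be tested, had 0 estimated counts in every control library, against 35, 29 and 7 in the miR-322/-503 group. The summed level of the leukocyte list was 23.1 to 30.2 TPM in the control and 20.9 to 25.4 TPM in the miR-322/-503 group. Of 5 endothelial markers, 1 was tested, Tek, which rose by a log2 fold change of 1.90 (adjusted p = 0.000342, edgeR, with 13.2% of all tested genes higher at this threshold), Pecam1, Cdh5 and Kdr had at most 12 estimated counts, Emcn was at 0, and the list summed to 0.423 to 0.524 TPM in the control and 1.58 to 2.35 TPM in the miR-322/-503 group. Of 5 fibroblast markers, 4 were tested, 1 was lower (Pdgfra, -0.74) and 1 higher (Dpt, 0.94), beside the same 15.5% and 13.2%, Col15a1 had a log2 fold change of 0.11 and did not pass, Thy1 had at most 6 estimated counts, and the list summed to 37.3 to 38.1 TPM and 37.8 to 43.1 TPM. All 10 myoblast and myotube markers were tested, of which 1 was lower (Myog) and 5 higher (Myod1, Myf5, Mymx, Des and Ckm), beside 15.5% and 13.2% of all tested genes. Myog stood at -0.74 and Ckm at 0.87 on the log2 scale. Myf6 at 0.78 (SE 1.04), Mymk at -0.41 (SE 0.15), Acta1 at 0.09 and Myh3 at -0.05 did not pass. The list had sums of 3190 to 3575 TPM and 3637 to 3814 TPM. The part of the stage of differentiation in the chemokine levels was not tested. The primary microRNA genes Mir322 and Mir503 had no more than 17 and 6 estimated counts in any library and were not tested, so these libraries gave no check of the overexpression.

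For each chemokine gene, the gene with the most similar profile over the 6 libraries was taken from 13590 genes that averaged at least 1 CPM, by the root mean square distance between centred log2 CPM values. The nearest gene to Cxcl12 was Endod1 (distance 0.0264, log2 fold change -1.58). That of Cxcl1 was Tap1, a subunit of the peptide transporter of antigen processing (distance 0.133, log2 fold change -2.64). Ccl7 had Hexa (0.0165), Ccl2 the transcript B230206L02Rik (0.0559), Cxcl16 Ctxn3 (0.0563) and Cxcl5 Lgr4 (0.0672) as their nearest genes by this distance. The distances were larger for Ccl5 (Lrrn1, 0.174), Cxcl10 (Tomm5, 0.203) and Cxcl14 (Traf1, an adaptor of TNF receptors, 0.408). The largest was that of Cx3cl1 (Usp49, 0.618), the gene whose control libraries differed, and all of these distances were taken over both groups, so they include the difference between them.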

How the data were processed

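RNA-seq was done on 3 control and 3 miR-322/-503 overexpressing DM1 myoblast libraries. The authors used Trim Galore for trimming, HISAT2 for alignment to GRCm38 and StringTie for estimated counts per gene (versions and annotation not given in the sources used here). The deposited estimated counts are whole numbers without normalization. The deposited tables of single libraries hold TPM and FPKM, normalized for length and depth, and coverage (a signal per base). FPKM and coverage were not used for results. All columns were mapped to samples.

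Total estimated counts were 73532084 to 92157388 per library. The most frequent low count was 4 in every library, so a read pair was taken to enter as about 4 counts. On that reading, the libraries held about 18383021 to 23039347 read pairs. Intervals and floors in read pairs rest on this reading and cover counting error only.

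Genes were tested with edgeR 4.0.16 (filterByExpr, TMM, quasi-likelihood F test, Benjamini-Hochberg adjustment) in R 4.3.3. TMM factors were 0.977 to 1.03. A standard error (SE) is the log2 fold change divided by the square root of F. Replicates differed by more than sampling noise (chi-square per degree of freedom 13.5 to 19.5 on counts per read pair). On simulated data, edgeR called 188 of 200 genes simulated at a log2 fold change of 1.5, and 11 unchanged genes, among 18140. The changed genes were drawn from those with a mean above 1 CPM. Cxcl10, Cxcl14, Cxcl16 and Ccl5 lay below that mean, so the simulation does not cover genes at their level. Alternatives were DESeq2 1.42.0, limma 3.58.1 on log2(TPM + 1) and log2(TPM + 0.1), upper-quartile scaling, other filters, counts divided by 4, a replicate block, leaving out each library and a neighbour window of 500 kb.

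The chemokine genes and the other lists were chosen with earlier results of these data known. Named are all 10 chemokine genes, their nearest profiles, and of each other list the genes with an adjusted p under 0.05 and an absolute log2 fold change above 1, or otherwise the 3 with the largest change. Other list genes, among them cluster neighbours, receptors and smaller changes, were named after their values were seen.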

Additional observations from a re-analysis of the deposited data

How the results depend on the processing

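No fold change of the 10 chemokine genes changed direction under an alternative, but some medians of neighbouring genes did with the smaller window. Cxcl1, Cxcl5 and Cxcl12 passed the adjusted p in 14 of 14 alternatives and Ccl5 in 13 of 13, and Cxcl16 and Ccl7 in 0 of 14. The number called lower was 3 with at least 10 counts in every library, where Ccl5 was not tested, 3 with limma on log2(TPM + 1), where Cxcl5 was at -0.82, and 5 with limma on log2(TPM + 0.1). The number of chemokine genes called higher was 0 with at least 10 counts in every library, where Cxcl14 was not tested, and 0 with limma on log2(TPM + 1). Those higher at an adjusted p under 0.05 also numbered 0 with at least 10 counts in every library, and 1 receptor (Ackr4) was lower with limma on log2(TPM + 1). Cxcl10 passed with limma on log2(TPM + 1) (adjusted p = 0.0332) and on log2(TPM + 0.1) (0.0428), and Ccl2 with DESeq2 (0.0448) and limma on log2(TPM + 0.1) (0.0480). The causes were not tested. When each library was left out in turn, 4 to 5 chemokine genes were called lower and 0 to 1 higher, and 4 to 6 were lower and 0 to 1 higher at an adjusted p under 0.05, the extra ones being Cx3cl1 and Ccl2 without control replicate 1 and Cxcl10 without miR-322/-503 replicate 3. The counts were then 0 to 1 lower and 3 higher for other ligands, 0 to 1 lower and 1 higher for receptors (Ccrl2 lower without miR-322/-503 replicate 1 and Ackr4 without miR-322/-503 replicate 2), 3 to 4 lower and 2 higher for processing genes, and 4 lower and 4 to 7 higher for NF-kB and inducer genes (4 without miR-322/-503 replicate 3).

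Replicate numbers were taken not to mark pairs, since the labels do not say that they mark shared cultures. The deviations of same-numbered libraries correlated at 0.131, 0.0687 and 0.0451, and those of differently numbered libraries were not computed. With the replicate block, 4 chemokine genes were called lower and 1 higher, as without it, 3 processing genes (Adam10 added, as with DESeq2) were higher, and the log2 fold change of Cx3cl1 was -1.43 (adjusted p = 0.177, edgeR). Within 500 kb in place of 1 Mb, the sign turned for Cxcl1, Cxcl5, Ccl2 and Ccl7, and the median log2 fold change of the neighbours was -0.71 for Cx3cl1, -0.19 for Cxcl1, -0.06 for Cxcl5, 0.44 for Cxcl12 (1 gene) and 2.08 for Ccl2 and Ccl7 (1 gene outside the 10, Ccl8). Depth limits Cxcl14, Ccl5 and Cxcl10 most, with groups of about 4 read pairs for the first pair.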
